A study of Mus musculus with 17 samples.

Results

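The 10 genes described here are the distal convoluted tubule and WNK pathway genes Slc12a3, Wnk4, Wnk1, Stk39, Klhl3, Pvalb, Trpm6, Calb1, S100g and Trpv5. They were taken by gene symbol from a table of 42794 genes measured by RNA sequencing of mouse kidney. Each symbol matched 1 gene, and all 10 were among the 13279 genes that passed the filter on low values. The labels place 17 libraries in 3 groups. The 7 libraries titled DKD_shRNA carry the genotype Gcgr shRNA: a hairpin that targets the glucagon receptor gene and was meant to act in proximal tubule cells (PTEC). The 6 libraries titled DKD_Vehicle carry the genotype Ctr shRNA, so that the title and the genotype name different control agents. The 4 NC libraries carry the genotype WT and are the control group. The series title concerns diabetic kidney disease. The way the disease was induced, the delivery of the hairpin and the strain and age of the mice are not stated in the labels. A library is called here by its group and title number. Since no label says which animal a library came from, the p-values rest on differences among libraries, which may be partly technical.

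The distal convoluted tubule is a short nephron segment that fine-tunes sodium, potassium, magnesium and calcium excretion. Sodium chloride enters its cells through the thiazide-sensitive cotransporter NCC, encoded by Slc12a3. The kinases WNK1 and WNK4 activate the kinase SPAK, encoded by Stk39, which phosphorylates NCC and raises its activity. KLHL3 is the adaptor that brings WNK kinases to a cullin ubiquitin ligase for degradation, and mutations in the WNK1, WNK4 and KLHL3 genes cause a familial form of hypertension with high potassium in humans. Parvalbumin (Pvalb) is a calcium-binding protein of the early segment and TRPM6 is its apical magnesium channel. Calbindin-D28k (Calb1), calbindin-D9k (S100g) and the calcium channel TRPV5 carry out calcium reabsorption in the late segment and the connecting tubule.

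Reads recovered from the deposited values summed to 13997657 to 17107876 per library. The 5 distal convoluted tubule markers (Slc12a3, Pvalb, Trpm6, Emx1 and Kcnj10) each reached an FPKM of 1 in every group. Gcgr, the targeted gene, averaged 13.02 ± 1.70 FPKM in the libraries labelled DKD_shRNA, 9.74 ± 2.14 in DKD_Vehicle and 20.8 ± 2.42 in NC (SD; n = 7, 6 and 4). Its log2(FPKM + 1) was therefore 0.40 higher in the libraries labelled DKD_shRNA than in DKD_Vehicle (exact two-sided permutation p = 0.00641), which goes against the label in whole kidney. Against NC it was 1.04 lower in DKD_Vehicle (exact p = 0.00476) and 0.64 lower in the libraries labelled DKD_shRNA (exact p = 0.00303). One library stood apart: DKD_Vehicle 20 had a summed fat marker level of 121.7 FPKM and a summed urothelium marker level of 177.7 FPKM, against at most 6.97 and 11.1 FPKM in the other 16. It also had the lowest Gcgr of its group (5.89 FPKM, the others 8.80 to 11.8) and was kept in the tests of Gcgr. The libraries labelled DKD_shRNA had 11.02 to 15.7 FPKM of Gcgr and so overlapped DKD_Vehicle.

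RefSeq promoter windows on GRCm38.p6, each 300 bases from 250 before the transcription start, were found for 9 of the 10 genes (10 windows, since Pvalb has a pair); Calb1 was not matched. The 4 windows below belong to the 3 genes that fell in DKD_Vehicle and to Pvalb, the member with the highest fold change in that comparison. They are written 5′ to 3′ on the strand of the gene, with capitals marking the letters TATAAA, the core of a classic start-proximal promoter element, and GGGCGG, known as the GC box, on either strand.
Slc12a3, chr8:94328958-94329257, plus strand: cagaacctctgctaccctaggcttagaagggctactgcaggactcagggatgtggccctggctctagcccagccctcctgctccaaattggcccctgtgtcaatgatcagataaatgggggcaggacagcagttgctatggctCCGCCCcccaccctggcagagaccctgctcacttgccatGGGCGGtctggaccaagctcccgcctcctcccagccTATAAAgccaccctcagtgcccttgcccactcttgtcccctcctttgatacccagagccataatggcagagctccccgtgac
Wnk4, chr11:101260317-101260616, plus strand: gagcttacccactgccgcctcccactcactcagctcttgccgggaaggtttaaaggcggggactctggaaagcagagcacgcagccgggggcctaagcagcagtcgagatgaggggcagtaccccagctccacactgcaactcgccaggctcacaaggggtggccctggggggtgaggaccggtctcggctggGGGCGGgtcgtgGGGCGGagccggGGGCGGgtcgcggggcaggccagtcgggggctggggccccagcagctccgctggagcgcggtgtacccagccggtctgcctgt
Klhl3, chr13:58113598-58113897, minus strand: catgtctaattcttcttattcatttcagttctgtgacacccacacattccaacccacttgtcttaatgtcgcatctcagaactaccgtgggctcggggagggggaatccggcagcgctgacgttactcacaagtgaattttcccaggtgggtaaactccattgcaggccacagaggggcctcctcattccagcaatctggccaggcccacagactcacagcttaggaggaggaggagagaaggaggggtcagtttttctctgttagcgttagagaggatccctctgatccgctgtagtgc
Pvalb, chr15:78206351-78206650, minus strand: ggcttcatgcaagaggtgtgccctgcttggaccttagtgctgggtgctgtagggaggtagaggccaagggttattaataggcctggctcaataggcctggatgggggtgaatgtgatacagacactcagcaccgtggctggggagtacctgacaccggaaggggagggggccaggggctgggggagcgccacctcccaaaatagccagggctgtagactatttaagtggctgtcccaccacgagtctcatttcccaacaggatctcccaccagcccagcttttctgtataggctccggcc
The Slc12a3 window held TATAAA 32 bases before the start site and GGGCGG 68 bases before it, with a further GC box on the other strand 107 bases before it. Wnk4 held 3 copies of GGGCGG, at 57, 45 and 33 bases before its start site, and no TATAAA. Neither motif was found in the windows shown for Klhl3 and Pvalb. Counting both strands, TATAAA was in windows of 3 of the 9 matched genes (Slc12a3, Trpv5 and S100g) and in 13.6% of 32851 RefSeq mouse promoters. GGGCGG was in those of 4 (Slc12a3, Wnk1, Wnk4 and Stk39) and in 35.7% of all promoters. The TATAAA of Trpv5 began 43 bases before its start site, whereas that of S100g began at the annotated start site itself and not before it. The cAMP response element TGACGTCA, present in 1.79% of promoters, and the steroid receptor element (AGAACA, 3 bases of any kind, then TGTTCT), present in 0.00913%, were in none of the 9. No searched motif overlapped another in the printed windows. The windows differed in CG content: Slc12a3 had 4 CG dinucleotides, S100g 3 and Trpv5 1, whereas Wnk4 had 21, Wnk1 32 and Stk39 49, beside a median of 7 over all promoters. These matches describe letters in the reference and are not evidence of binding.

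The level of each gene is given in FPKM, fragments per kilobase of gene relative to a size set for each library. The unit allows genes of different length to be set side by side. That size was 0.949 to 1.15 times the recovered reads of a library, and the highest ratio was in DKD_Vehicle 20. In each of the 3 groups the mean level ran in the same order: S100g, Slc12a3, Calb1, Wnk4, Pvalb, Wnk1, Klhl3, Stk39, Trpv5 and Trpm6. S100g averaged 1020 ± 708 FPKM in the libraries labelled DKD_shRNA, 822 ± 149 in DKD_Vehicle and 1170 ± 136 in NC, and its range overlapped no other member. At the low end Trpm6 averaged 2.55 ± 0.581 FPKM in the libraries labelled DKD_shRNA, 2.43 ± 0.379 in DKD_Vehicle and 3.05 ± 0.284 in NC. In NC every neighbour in the order was separated without overlap except Pvalb and Wnk1. In DKD_Vehicle the ranges of 6 of the 9 neighbouring pairs overlapped, and 6 of 9 also overlapped in the libraries labelled DKD_shRNA. The levels of Slc12a3 and Wnk1 are low estimates for their messenger RNAs, because the table divides by all exon bases of the gene, 2.58 and 2.02 times the longest protein-coding transcript. Wnk1 has 26 annotated transcripts, and its kidney-specific short form, which lacks most of the kinase domain, was not separated from the full-length form.

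**Figure D1:**
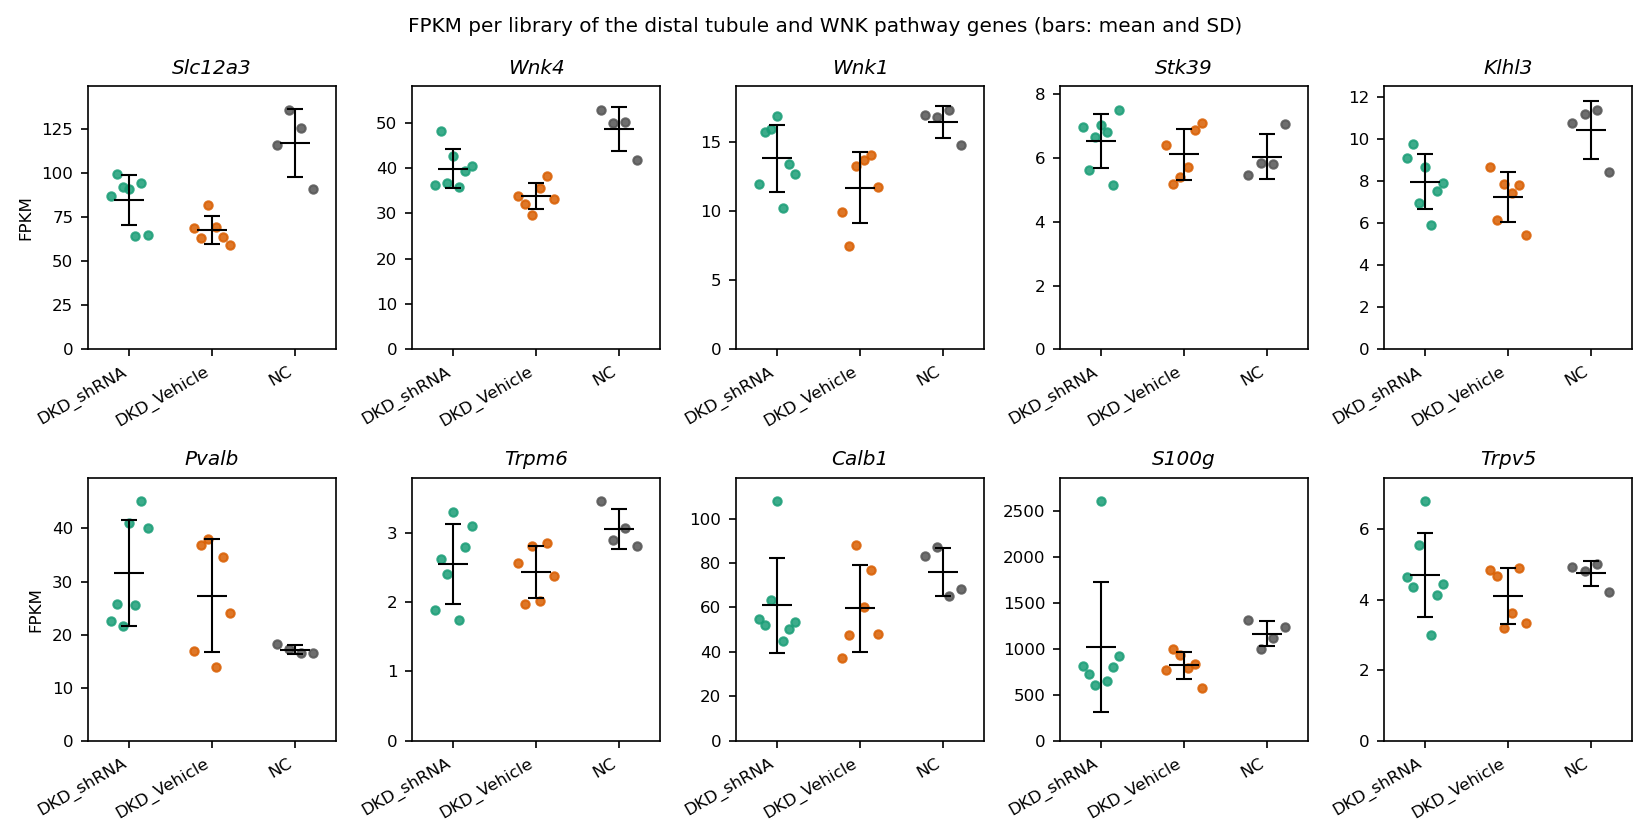
FPKM (y axis, from 0) of the 10 genes in each of 17 libraries (points) by group, with the mean and SD as bars. All 6 DKD_Vehicle points of Slc12a3, Wnk4 and Wnk1 lie below the 4 NC points, and 1 library labelled DKD_shRNA lies far above the others for Calb1 (108 FPKM) and S100g (2608 FPKM).

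Slc12a3, the sodium chloride cotransporter gene (ENSMUSG00000031766, chr8:94329201-94366214), had the most negative fold change of the members in DKD_Vehicle against NC. Its FPKM ran from 64.5 through a median of 91.1 to 99.3 in the 7 libraries labelled DKD_shRNA, and from 59.1 through 66.2 to 81.8 in the 6 DKD_Vehicle libraries. The 4 NC libraries had 116, 136, 125 and 90.9 FPKM. Every DKD_Vehicle library was below every NC library, whereas 4 of the libraries labelled DKD_shRNA were above the lowest NC library, NC 41. Slc12a3 averaged 67.6 ± 7.89 FPKM in DKD_Vehicle and 117 ± 19.2 FPKM in NC (SD, n = 6 and 4), so that the mean in DKD_Vehicle was 57.8% of that in NC. The log2 fold change was −0.77 ± 0.14 (SE) with an adjusted p of 0.00291 (limma-trend on log2(FPKM + 1), Benjamini-Hochberg over 13279 genes). In bulk kidney, fewer cells of a type and less RNA per cell cannot be told apart. The call held in all 26 alternative settings, among them the fit without DKD_Vehicle 20 and DKD_shRNA 31, with adjusted p from 0.000533 to 0.0167.

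WNK4, encoded by Wnk4 (ENSMUSG00000035112, chr11:101260567-101277409), is the main WNK kinase acting on NCC in this segment. It ranged from 35.9 to 48.1 FPKM with a median of 39.4 in the libraries labelled DKD_shRNA, and in DKD_Vehicle from 29.7 to 38.2 with a median of 33.6. In NC it had 52.8, 49.9, 50.2 and 41.7 FPKM. DKD_Vehicle lay wholly below NC, and it fell by 0.51 ± 0.09 on the log2 scale (adjusted p = 0.00304, limma-trend), a call kept in all 26 alternatives. An antisense gene, Gm11615, shares 306 exon bases with Wnk4 at 0.151 to 2.10 FPKM, and since the use of strand is not given, reads there could not be assigned.

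Wnk1, whose product acts upstream of SPAK in many tissues, ranged from 10.2 to 16.9 FPKM (median 13.5) in the libraries labelled DKD_shRNA and from 7.49 to 14.1 (median 12.5) in DKD_Vehicle. The NC libraries had 16.96, 16.8, 17.4 and 14.8 FPKM, all above every DKD_Vehicle library. Its log2 fold change in DKD_Vehicle against NC was −0.49 ± 0.15 and did not pass (adjusted p = 0.0617, limma-trend). Without DKD_Vehicle 19, the highest of its group, the adjusted p was 0.0384; it was 0.0489 when only genes with a mean FPKM of 5 or more were tested and 0.0271 with sample weights. Stk39, the gene of the SPAK kinase, had the fold change nearest 0 of the members in DKD_Vehicle against NC: it averaged 6.53 ± 0.840 FPKM in the libraries labelled DKD_shRNA, 6.11 ± 0.794 in DKD_Vehicle and 6.04 ± 0.694 in NC. The groups overlapped throughout, from 5.14 to 7.50, 5.17 to 7.08 and 5.47 to 7.05 FPKM in that order. Its 95% interval for DKD_Vehicle against NC ran from −0.20 to 0.23 on the log2 scale.

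Klhl3, the gene of the ubiquitin ligase adaptor that targets WNK kinases (ENSMUSG00000014164, chr13:58000228-58113592), ranged from 5.93 to 9.77 FPKM (median 7.92) in the libraries labelled DKD_shRNA and from 5.44 to 8.67 (median 7.63) in DKD_Vehicle. The NC libraries had 10.8, 11.2, 11.4 and 8.42 FPKM. DKD_Vehicle and NC overlapped by a single pair, since DKD_Vehicle 1 (8.67) lay above NC 41 (8.42). Klhl3 fell by 0.48 ± 0.13 on the log2 scale in DKD_Vehicle (adjusted p = 0.0330, limma-trend). The call was lost in 8 of 26 alternatives: the adjusted p was 0.0784 with no filter, 0.0650 after rescaling to the same FPKM total, and 0.0547 without DKD_Vehicle 20 and DKD_shRNA 31. It was 0.0698 without DKD_Vehicle 4, 0.0520 without DKD_Vehicle 20, and 0.0934, 0.104 and 0.111 without NC 37, 38 and 39.

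Pvalb (ENSMUSG00000005716, chr15:78191114-78206400) stood at the other end of the members. Its FPKM ranged from 21.5 through a median of 25.7 to 45.1 in the libraries labelled DKD_shRNA and from 13.9 through 29.3 to 38.03 in DKD_Vehicle. The NC libraries had 18.3, 17.3, 16.6 and 16.6 FPKM. All 7 libraries labelled DKD_shRNA were above NC, while DKD_Vehicle lay on either side, with DKD_Vehicle 1 (16.8) inside the NC range and DKD_Vehicle 8 (13.9) below it. The spread differed as well: the coefficient of variation was 31.4% in the libraries labelled DKD_shRNA and 38.6% in DKD_Vehicle, against 4.67% in NC. The NC value rests on 4 libraries with 263 to 281 Pvalb reads each, so its narrowness is uncertain, as is the separation from NC that relies on it. Against NC, the log2 fold change was 0.79 ± 0.26 in the libraries labelled DKD_shRNA (adjusted p = 0.141) and 0.55 ± 0.27 in DKD_Vehicle (adjusted p = 0.233, limma-trend), so that neither passed. With only those libraries and NC in the fit, the first of these had an adjusted p of 0.0489. Because Pvalb is also abundant in fast skeletal muscle, 9 muscle markers were summed: they reached 0.816 to 2.45 FPKM in the libraries labelled DKD_shRNA, 0.950 to 2.03 in DKD_Vehicle and 0.925 to 1.23 in NC. Tnnc2 was at 0 in every library, and Ckm was at 0 in every library labelled DKD_shRNA and every NC library and at most 0.0364 FPKM in DKD_Vehicle. Acta1 was low, yet higher in every library of both DKD groups than in every NC library, at 0.0884 to 0.639 FPKM in the libraries labelled DKD_shRNA and 0.138 to 0.313 in DKD_Vehicle, against at most 0.0833 in NC. Atp2a1 ran the other way, at 0 to 0.157 FPKM in the libraries labelled DKD_shRNA, 0.0395 to 0.137 in DKD_Vehicle and 0.107 to 0.325 in NC. Mylpf, the most abundant of the 9, overlapped between groups, at 0.524 to 1.68 FPKM in the libraries labelled DKD_shRNA, 0.550 to 1.36 in DKD_Vehicle and 0.602 to 1.05 in NC. The part of muscle RNA in the Pvalb levels was not tested.

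Trpm6, the magnesium channel gene, ranged from 1.75 to 3.29 FPKM (median 2.62) in the libraries labelled DKD_shRNA and from 1.98 to 2.85 (median 2.47) in DKD_Vehicle, and had 3.45, 2.90, 3.07 and 2.80 FPKM in NC. DKD_Vehicle overlapped NC through NC 41 (2.80), the lowest of NC, whereas DKD_shRNA 31 (3.29) and DKD_shRNA 35 (3.10) lay above 3 of the 4 NC libraries. In DKD_Vehicle against NC its log2 fold change was −0.25 ± 0.12 and did not pass (adjusted p = 0.233, limma-trend). At this low level it rests on 172 to 349 reads per library, and the log2(FPKM + 1) scale understates its change.

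Of the calcium transport genes, Calb1 ranged from 44.9 to 108 FPKM (median 53.7) in the libraries labelled DKD_shRNA and from 37.1 to 88.0 (median 54.1) in DKD_Vehicle. Its NC values were 83.1, 87.0, 65.2 and 68.4 FPKM, inside the range of either other group. S100g ranged from 608 to 2608 FPKM (median 801) in the libraries labelled DKD_shRNA and from 578 to 1006 (median 816) in DKD_Vehicle, and had 1312, 1004, 1119 and 1243 FPKM in NC. Only 1 DKD_Vehicle library, DKD_Vehicle 4 (1006), reached the NC range of S100g. Trpv5 ranged from 2.99 to 6.79 FPKM (median 4.44) in the libraries labelled DKD_shRNA and from 3.19 to 4.91 (median 4.16) in DKD_Vehicle, with 4.94, 4.83, 5.02 and 4.22 FPKM in NC. None of these genes passed in DKD_Vehicle against NC: the log2 fold change was −0.39 ± 0.23 for Calb1 (adjusted p = 0.330), −0.52 ± 0.30 for S100g (0.302) and −0.19 ± 0.15 for Trpv5 (0.479, limma-trend).

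Within the libraries labelled DKD_shRNA, a single library set the upper end of S100g and Calb1. DKD_shRNA 31 had the highest value of its group for Trpm6, Calb1, S100g, Trpv5 and Wnk1, and also for the distal genes Slc8a1 (9.12 FPKM, next 6.52), Klk1 (1944, next 1468) and Emx1 (29.6, next 23.8). It was also the highest of its group for some markers of other cell types. Among them were the proximal tubule markers Slc5a2, Slc5a12 and Miox, the intercalated cell markers Atp6v1b1, Atp6v1g3 and Slc26a4, and the principal cell marker Aqp2. The thick ascending limb marker Cldn16 and the macrophage markers C1qa and C1qb (52.4 FPKM, next 36.3) were others. Further markers of these lists were highest elsewhere: Lrp2, Cubn and Umod in DKD_shRNA 29, Slc34a1 and Insrr in DKD_shRNA 34, and Kap, Aqp3 and Slc4a1 in DKD_shRNA 32. For every gene, some library of the group is the highest. Without DKD_shRNA 31, S100g averaged 755 ± 115 FPKM and Calb1 53.2 ± 6.09 FPKM in the other 6 libraries labelled DKD_shRNA. S100g was then lower than in NC by 0.64 on the log2 scale in those libraries (adjusted p = 0.0392) and by 0.52 in DKD_Vehicle (adjusted p = 0.0434, limma-trend), although with all libraries neither comparison passed. Leaving out the library with the highest S100g lowers the mean of its group and the spread, so these p-values are no separate test. With all libraries, the coefficient of variation of Calb1 was 35.01% in those labelled DKD_shRNA and 32.7% in DKD_Vehicle. DKD_shRNA 32 had the lowest value of its group for 7 members, and NC 41 likewise for 7.

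Read together in DKD_Vehicle against NC, 3 of 10 members were lower (Slc12a3, Wnk4 and Klhl3) and 0 were higher, beside 3.91% of the 13279 tested genes called lower and 3.58% called higher. Without overlap between the groups, 3 members were lower (Slc12a3, Wnk4 and Wnk1) and 0 higher, beside 5.41% and 4.71% of all genes. The log2 fold change was below 0 for 8 members, against 48.5% of all genes, and its median was −0.44, against 0.01 over all genes tested. Per library, the median deviation of the members from the NC mean lay between −0.60 and 0.14 in the libraries labelled DKD_shRNA, between −0.51 and −0.14 in DKD_Vehicle and between −0.14 and 0.07 in NC. DKD_Vehicle and NC thus came close to each other: the median was −0.142 in DKD_Vehicle 19, with 6 members below the NC mean, and −0.137 in NC 41, with 8 below. The NC mean includes the NC libraries themselves, which draws their deviations towards 0.

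In the libraries labelled DKD_shRNA against DKD_Vehicle, the comparison meant to show the hairpin's effect, 0 of 10 members passed, as did 0% of all tested genes (limma-trend). The fold change was above 0 for all 10 members, against 48.5% of all genes, with a median of 0.15. For Calb1, S100g and Trpm6 the sign turned without DKD_shRNA 31 (−0.11, −0.11 and −0.01), and for Calb1 also with rescaling to the same FPKM total (−0.01), with sample weights (−0.08) and without DKD_Vehicle 1, 4 or 20 (−0.09, −0.02 and −0.01). Trpm6 was −0.00071 without DKD_Vehicle 4. At an unadjusted p under 0.05, 2 members were higher, beside 4.10% of all genes: Wnk4 by 0.23 ± 0.08 (adjusted p = 0.491) and Slc12a3 by 0.31 ± 0.12 (adjusted p = 0.558, limma-trend). No member was without overlap between these groups, beside 0.105% of genes higher and 0.0979% lower. Limma voom on recovered reads called 0 members and 1 gene. The 95% intervals ran from 0.06 to 0.56 for Slc12a3, from 0.06 to 0.40 for Wnk4, from −0.11 to 0.36 for Klhl3 and from −0.04 to 0.51 for Wnk1. Since Gcgr was higher in the libraries labelled DKD_shRNA, these directions describe the labelled groups and not a measured loss of the receptor.

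In the libraries labelled DKD_shRNA against NC, 0 of 10 members passed, beside 1.42% of all genes called higher and 0.595% called lower. At an unadjusted p under 0.05, 3 members were lower (Slc12a3, Wnk4 and Klhl3), beside 7.40% of all genes, and 1 was higher (Pvalb), beside 8.80%. Slc12a3 averaged 84.6 ± 14.1 FPKM in the libraries labelled DKD_shRNA, 72.3% of the NC mean, with a log2 fold change of −0.47 ± 0.13 (adjusted p = 0.0912, limma-trend). The log2 fold change was −0.28 ± 0.09 for Wnk4 (adjusted p = 0.124) and −0.35 ± 0.13 for Klhl3 (adjusted p = 0.169). Without NC 41 the adjusted p of Slc12a3 was 0.0420, and with sample weights the 3 lower members all passed, at 0.0155, 0.0223 and 0.0274. Pvalb was the 1 member higher without overlap, beside 3.31% of genes, and 0 were lower without overlap, beside 2.23%. The fold change was below 0 for 8 members, against 51.2% of all genes. The comparisons share libraries, so their values for a gene are not independent, and passing in DKD_Vehicle but not in the libraries labelled DKD_shRNA does not show a difference between those groups.

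**Figure D2:**
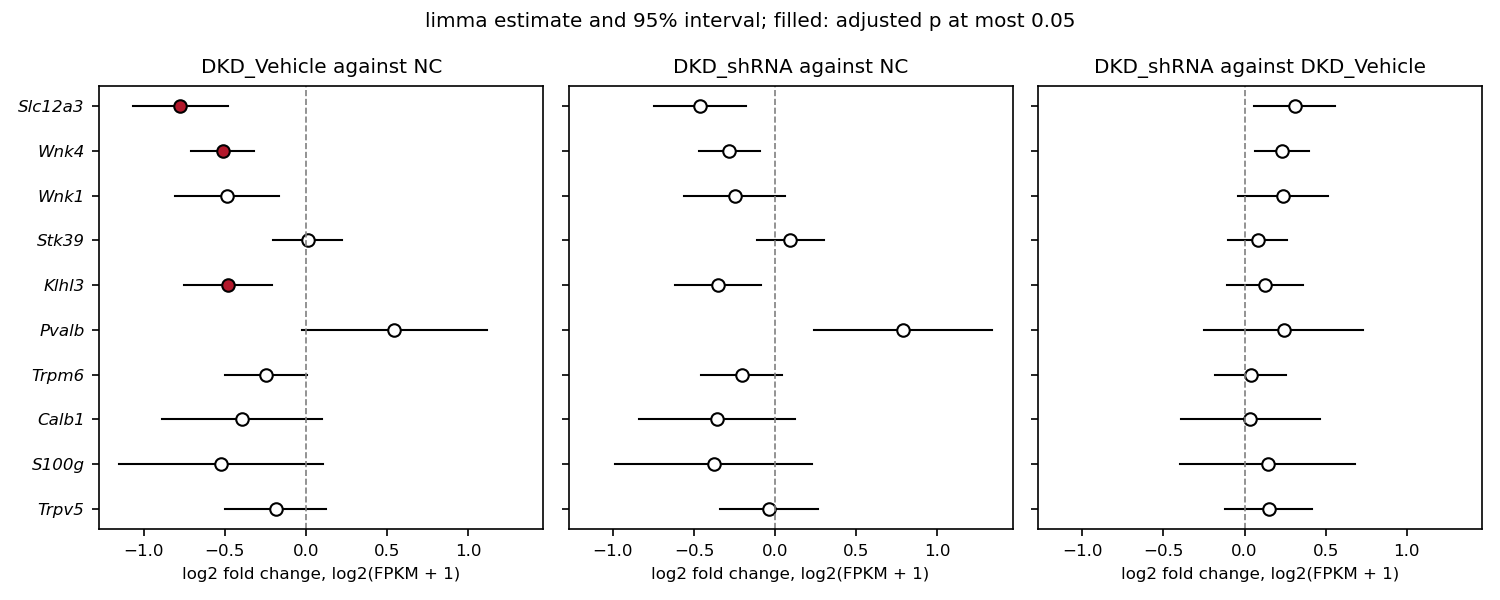
Log2 fold change (x axis, on log2(FPKM + 1)) with its 95% interval for each gene in 3 comparisons; filled points have an adjusted p of at most 0.05. Slc12a3, Wnk4 and Klhl3 are filled in DKD_Vehicle against NC, and no gene is filled in either comparison of the libraries labelled DKD_shRNA.

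**Figure D3:**
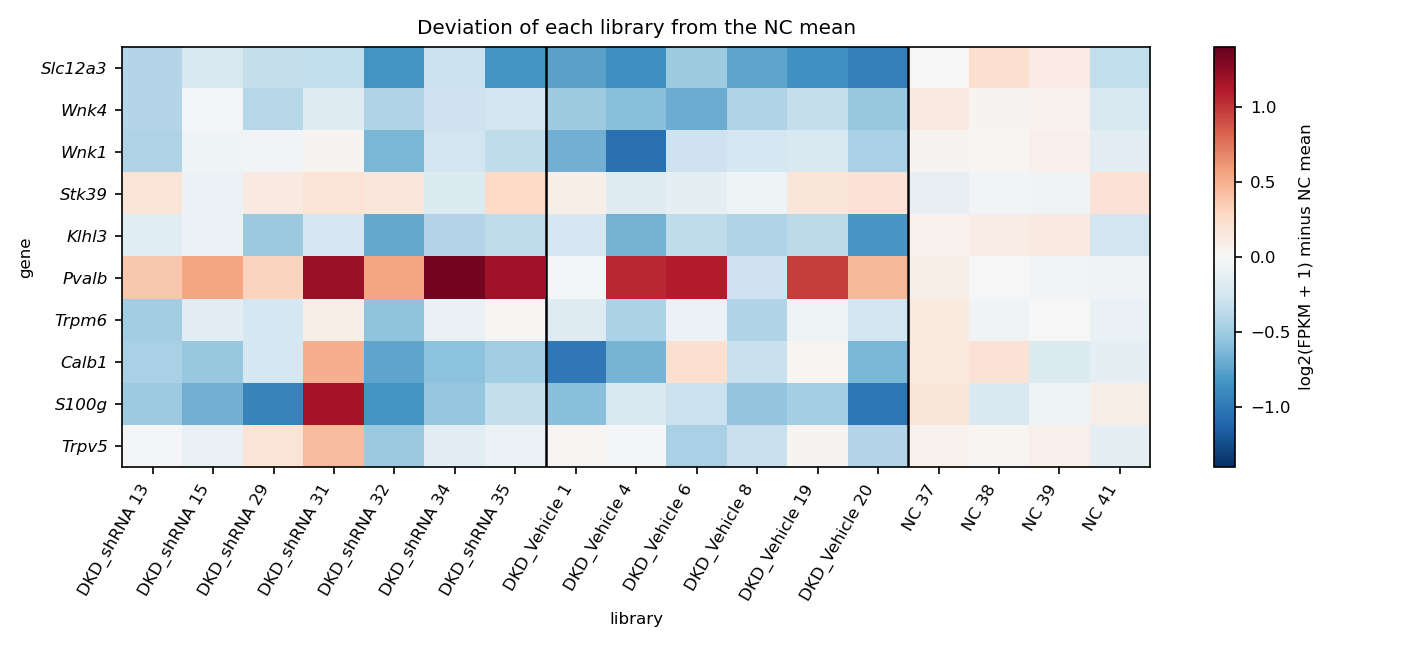
Log2(FPKM + 1) of each gene (rows) in each library (columns, libraries labelled DKD_shRNA at the left, NC at the right) minus the NC mean, from blue (lower) to red (higher). Pvalb is above the NC mean in all 7 libraries labelled DKD_shRNA; Slc12a3, Wnk4 and Klhl3 are below it in all 7 of these and all 6 DKD_Vehicle libraries, and Wnk1, Trpm6 and S100g are below it in all 6 DKD_Vehicle libraries.

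Within a library, the ratio of each gene to Slc12a3 shows how the members moved relative to each other. The log2 ratio of Pvalb to Slc12a3 averaged −1.46 ± 0.53 in the libraries labelled DKD_shRNA, −1.40 ± 0.63 in DKD_Vehicle and −2.75 ± 0.24 in NC (SD; n = 7, 6 and 4). The lowest library labelled DKD_shRNA (−2.09) and the lowest DKD_Vehicle library (−2.31) both lay above the highest NC library (−2.46). This separation was common among genes in DKD_Vehicle against NC, where 53.7% of all genes had a ratio to Slc12a3 that was higher without overlap, and less common in the libraries labelled DKD_shRNA against NC, with 8.50%. The other 8 ratios overlapped between groups in all 3 comparisons, as did Pvalb in the libraries labelled DKD_shRNA against DKD_Vehicle. A ratio higher without overlap was found for 0.00753% of genes in that comparison and a lower one for 0.407%; lower ratios without overlap were 0.0979% in DKD_Vehicle against NC and 0.0377% in the libraries labelled DKD_shRNA against NC. The ratio of Wnk4 to Slc12a3 averaged −1.07 ± 0.24 in the libraries labelled DKD_shRNA, −0.998 ± 0.25 in DKD_Vehicle and −1.26 ± 0.15 in NC, and that of Klhl3 −3.40 ± 0.23, −3.23 ± 0.19 and −3.48 ± 0.08 in the same groups.

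**Figure D4:**
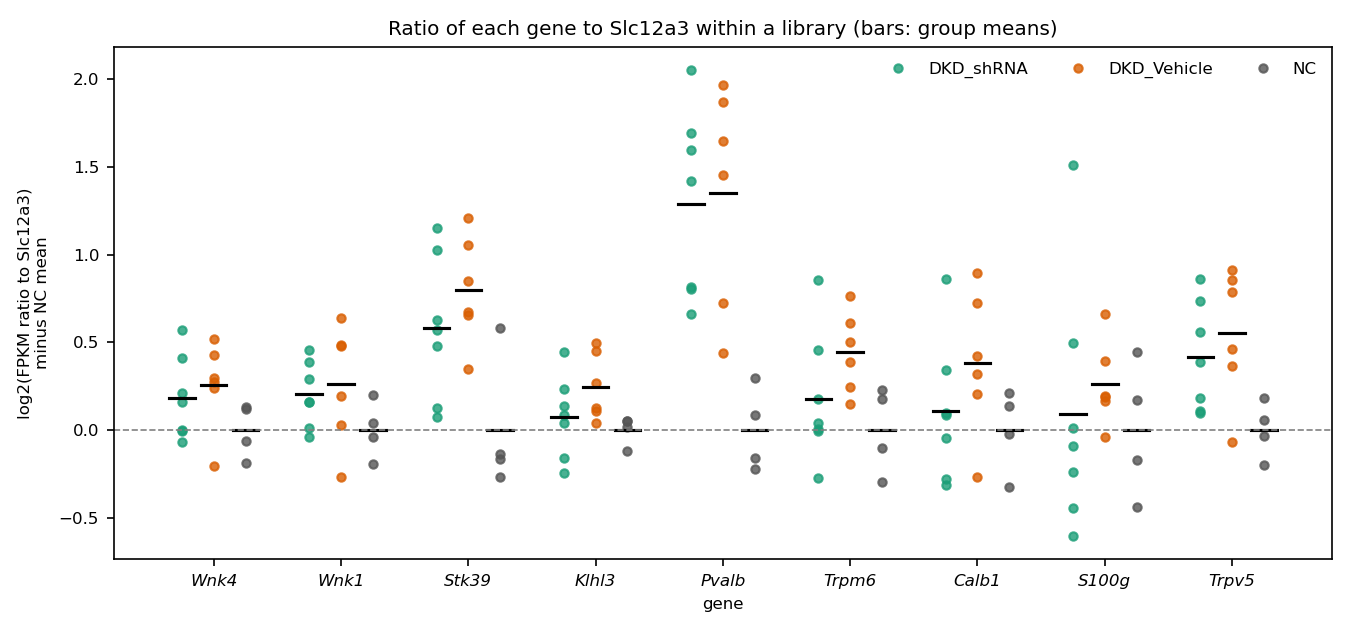
Log2 of the FPKM ratio of each gene to Slc12a3 within a library, minus the NC mean (y axis), by gene (x axis); points are libraries and bars group means. Pvalb is the 1 gene whose points in both the libraries labelled DKD_shRNA and DKD_Vehicle all lie above NC, with mean differences of 1.29 and 1.35.

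Over the 17 libraries, likeness to Slc12a3 was measured as the root mean square difference of log2(FPKM + 1), each gene centred on its own mean. Among the members Klhl3 was nearest (0.200, rank 5 of 13278 genes), then Wnk4 (0.226, rank 26) and Wnk1 (0.238, rank 49), and Pvalb was farthest (0.714, rank 12632). The median over all genes was 0.403, and Stk39 (0.434) and S100g (0.484) lay beyond it. The nearest genes outside the members were Insrr (0.168), Scnn1b (0.183), Slc4a3 (0.194), Acss1 (0.194) and Ttbk1 (0.205). Insrr, a receptor tyrosine kinase of intercalated cells, averaged 4.61 FPKM in the libraries labelled DKD_shRNA, 3.56 in DKD_Vehicle and 7.19 in NC. Scnn1b, a subunit of the epithelial sodium channel, averaged 14.8, 12.46 and 20.1 FPKM in the same groups. The measure follows size as well as shape, and low genes such as Ttbk1 vary little on this scale. It also takes in the differences between groups, so the ranks are not separate from the fold changes given above.

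Of 13 other genes of the WNK pathway and its control, 11 were tested. Their median in DKD_Vehicle against NC was −0.10 on the log2 scale, against 0.01 over all genes. In that comparison 1 of the 11 fell, beside 3.91% of all tested genes. It was Hsd11b2, the enzyme that protects the mineralocorticoid receptor from glucocorticoids, at 60.8 ± 13.7 FPKM in DKD_Vehicle and 91.9 ± 4.76 FPKM in NC (log2 fold change −0.62 ± 0.14, adjusted p = 0.0152, limma-trend). Its adjusted p was 0.0515 without NC 38, 0.0541 without NC 39 and 0.0539 with only the compared groups in the fit. The mineralocorticoid receptor gene Nr3c2 did not pass at 1.70 ± 0.264 FPKM in DKD_Vehicle and 2.43 ± 0.153 in NC (adjusted p = 0.0727), nor did the phosphatase inhibitor gene Ppp1r1a at 85.9 ± 21.9 and 125 ± 21.1 (adjusted p = 0.113, limma-trend). Wnk2 and Wnk3 were below the filter. Oxsr1, Klhl2, Cul3, Cab39 and Cab39l did not pass in DKD_Vehicle against NC (adjusted p from 0.225 to 0.990, limma-trend). None of the 11 passed in the libraries labelled DKD_shRNA against DKD_Vehicle, where the smallest p belonged to Hsd11b2 (0.28 ± 0.12, adjusted p = 0.634) and Ppp1r1a (0.41 ± 0.19, adjusted p = 0.659), and none against NC, where Hsd11b2 was first (−0.34 ± 0.14, adjusted p = 0.244, limma-trend) and Nr3c2 second (−0.21 ± 0.11, adjusted p = 0.378).

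Of 16 chloride, potassium and magnesium genes of the segment, 15 were tested and 3 fell in DKD_Vehicle against NC, beside 3.91% of all tested genes (list median −0.16), of which 2 are described here. Egf, whose product stimulates TRPM6 and which is made in the thick ascending limb and distal convoluted tubule, averaged 44.8 ± 14.1 FPKM in DKD_Vehicle and 93.2 ± 9.27 FPKM in NC (log2 fold change −1.09 ± 0.20, adjusted p = 0.00318, limma-trend). Kcnj10, the basolateral potassium channel, averaged 9.84 ± 1.97 FPKM in DKD_Vehicle and 14.3 ± 0.789 FPKM in NC (−0.51 ± 0.14, adjusted p = 0.0372, limma-trend). Egf passed in all 26 alternatives, whereas Kcnj10 was lost in 10, among them without any 1 of DKD_Vehicle 1, 4, 6 and 20 or of the 4 NC libraries (adjusted p from 0.0566 to 0.101). None passed in the libraries labelled DKD_shRNA against DKD_Vehicle, where the log2 fold change was 0.44 ± 0.12 for Kcnj10 (adjusted p = 0.330, limma-trend). Against NC none passed in those libraries; the smallest p was that of Egf (−0.56 ± 0.19, adjusted p = 0.156, limma-trend).

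Of 10 genes of distal calcium transport and its control, 9 were tested and 2 fell in DKD_Vehicle against NC, beside 3.91% of all tested genes. All 9 fold changes were below 0, against 48.5% of all genes, with a median of −0.45. Klk1, tissue kallikrein of the connecting tubule, averaged 1046 ± 280 FPKM in DKD_Vehicle and 1775 ± 152 FPKM in NC (−0.80 ± 0.18, adjusted p = 0.0126, limma-trend). Casr, the calcium-sensing receptor, averaged 3.76 ± 1.44 FPKM in DKD_Vehicle and 7.19 ± 0.844 FPKM in NC (−0.83 ± 0.19, adjusted p = 0.0141). The transporter genes Slc8a1 (adjusted p = 0.0744), Atp2b1 (0.667) and Atp2b4 (0.731, limma-trend) did not pass in this comparison. The adjusted p of Klk1 was 0.0520 without NC 38 and 0.0697 with no filter on low values, and that of Casr 0.0603 without NC 39. Neither passed in the libraries labelled DKD_shRNA against DKD_Vehicle (0.40 ± 0.16, adjusted p = 0.558 for Klk1; 0.44 ± 0.16, adjusted p = 0.533 for Casr, limma-trend) or against NC (−0.40 ± 0.18, adjusted p = 0.274 for Klk1; −0.39 ± 0.18, adjusted p = 0.311 for Casr), and no other gene of the list did. Trpv6 was below the filter.

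Among the SLC12 cotransporters, Slc12a3 was second in mean FPKM, with the gene length of the table, to Slc12a1, the NKCC2 cotransporter gene of the thick ascending limb. Slc12a1 averaged 122 ± 24.7 FPKM in the libraries labelled DKD_shRNA, 81.3 ± 36.3 in DKD_Vehicle and 154 ± 31.5 in NC. It fell by 1.03 ± 0.29 on the log2 scale in DKD_Vehicle against NC (adjusted p = 0.0422, limma-trend), the 1 call among 6 tested family members other than Slc12a3 (list median −0.07), beside 3.91% of all tested genes called lower. This call was lost in 9 of 26 alternatives: with no filter, with only the compared groups, without DKD_shRNA 15, without DKD_Vehicle 4 or 6 and without any 1 NC library (adjusted p from 0.0517 to 0.122). The remaining tested members averaged between 4.37 and 14.8 FPKM in every group. None of the 6 passed in the libraries labelled DKD_shRNA against DKD_Vehicle, where Slc12a1 differed by 0.70 ± 0.25 (adjusted p = 0.533, limma-trend), or against NC, where the smallest p was that of Slc12a4 (0.21 ± 0.10, adjusted p = 0.296).

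Some markers of other nephron segments were also lower in DKD_Vehicle against NC, where 3.91% of all tested genes were called lower and 3.58% higher. Lower calls were made for 2 of 5 distal convoluted tubule markers (Slc12a3 and Kcnj10), 1 of 5 connecting tubule, 2 of 7 thick ascending limb, 5 of 10 proximal tubule, 3 of 5 tested principal cell and 6 of 8 intercalated cell markers, with no higher call in any of these lists. In the libraries labelled DKD_shRNA against NC, 0.595% of all tested genes were called lower. There, 3 principal cell, 2 intercalated cell and 1 proximal tubule marker were lower, and no marker of the other lists named was called. Not every marker was lower: Cldn10 of the thick ascending limb had 41.9 to 60.5 FPKM in DKD_Vehicle and 39.02 to 53.3 in NC. The summed distal convoluted tubule markers ran from 125 to 181 FPKM in the libraries labelled DKD_shRNA, from 108 to 150 in DKD_Vehicle and from 147 to 196 in NC. Slc12a3 was the highest marker of this sum in every library. Slc12a3, Pvalb and Trpm6 are members, as are Calb1, Trpv5 and S100g of the connecting tubule list. These lists are therefore not separate from the member results. Summed intercalated cell markers ran from 84.2 to 125 FPKM in the libraries labelled DKD_shRNA, from 66.6 to 109 in DKD_Vehicle and from 119 to 154 in NC. Summed proximal tubule markers ran from 19747 to 41696 FPKM in the libraries labelled DKD_shRNA, from 14334 to 32652 in DKD_Vehicle and from 30034 to 41419 in NC. Most of this sum was Kap, at 16825 to 38127, 11733 to 29001 and 25260 to 37684 FPKM in the same groups. Summed thick ascending limb markers ran from 777 to 1091 FPKM in the libraries labelled DKD_shRNA, from 371 to 939 in DKD_Vehicle and from 896 to 1276 in NC. Most of this sum was Umod, at 602 to 887, 283 to 749 and 704 to 1007 FPKM in the same groups. Macrophage markers did not move one way: of 6, Lyz2 and Cd68 were higher in DKD_Vehicle and Csf1r lower, with a list median of 0.52 on the log2 scale. Their sum ran from 87.2 to 153 FPKM in the libraries labelled DKD_shRNA, from 63.5 to 152 in DKD_Vehicle and from 61.7 to 82.5 in NC. The part of the cell makeup in the lower Slc12a3, Wnk4 and Klhl3 levels was not tested.

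**Figure D5:**
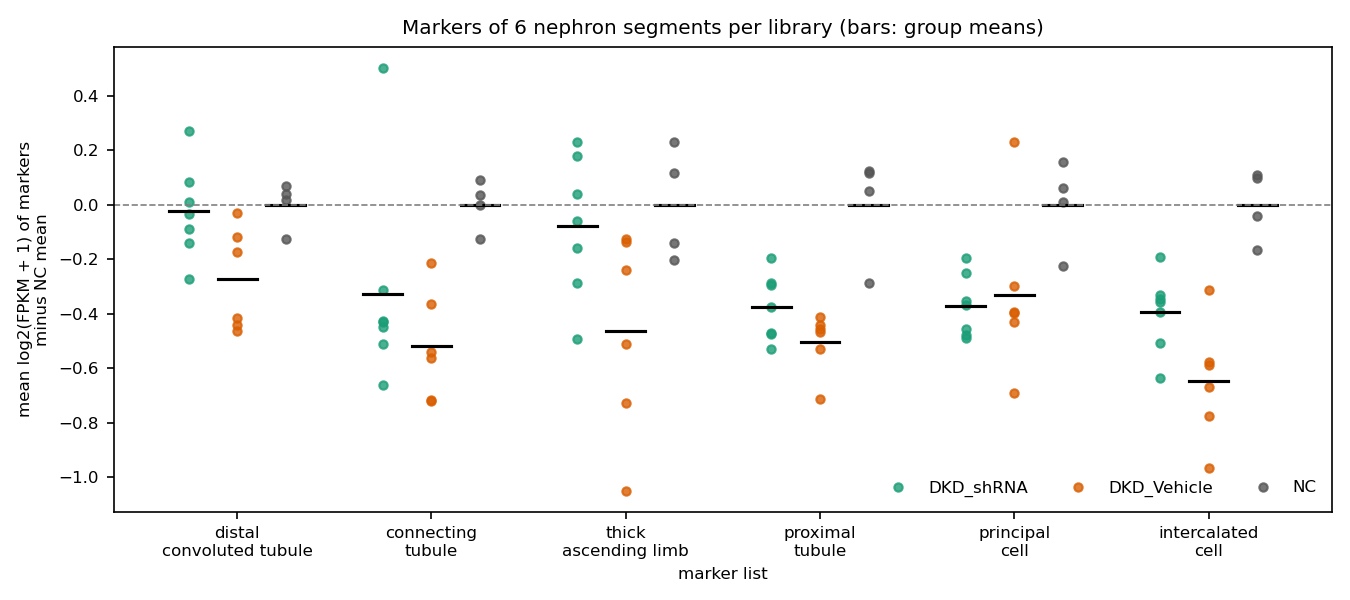
Mean log2(FPKM + 1) of each segment's markers minus the NC mean (y axis) for 6 marker lists (x axis); points are libraries and bars group means. The mean of DKD_Vehicle lies below NC in all 6 lists. The 7 libraries labelled DKD_shRNA have a mean near NC for the distal convoluted tubule and thick ascending limb lists. For the connecting tubule, proximal tubule, principal cell and intercalated cell lists their mean lies further below NC. The distal convoluted tubule mean joins markers that differed from NC in opposite directions in those libraries. Their log2 fold change was 0.79 for Pvalb and −0.47 for Slc12a3, and neither passed.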

How the data were processed

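RNA of mouse kidney was extracted with Trizol and sequenced from SMARTer mRNA-Seq libraries, per the labels' protocols. The authors deposited FPKM per gene and library in a single table that also holds gene length and position, per the file headers. GRCm38 and mm10 are named per the submitters' processing notes; aligner, counter, annotation release and strand setting: not given in the sources used here. Of the lines, 42794 were complete and 1 was incomplete and left out; 31784 genes had a value above 0.

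FPKM times gene length gave whole multiples of 1 step per library for 100% of low values (tolerance 0.05 of a step, up to 200 steps), from which reads were recovered. The main test was limma-trend (limma 3.58.1, R 4.3.3) on log2(FPKM + 1) with all 3 groups in the fit, for 13279 genes with an FPKM of at least 1 in at least 4 libraries, at a Benjamini-Hochberg adjusted p of 0.05. Fold changes are on the log2(FPKM + 1) scale and understate the change of low genes. It called 994 genes in DKD_Vehicle against NC, 0 in the libraries labelled DKD_shRNA against DKD_Vehicle (972 at an unadjusted p under 0.05) and 268 in those libraries against NC. Limma voom on the recovered reads, with TMM scaling, called 1032, 1 and 236. Gcgr was compared by exact two-sided permutation over 1716, 210 and 330 splits. The procedure was tested on simulated data. Alternatives were another pseudocount (0.1), other filters and scalings, sample weights, only the compared groups in the fit, and each library left out.

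Members and gene lists were chosen with earlier results of these data known. All 10 members are named; of each list, up to 4 genes that passed, or up to 2 with the smallest p where none did; and the 5 genes most like Slc12a3. The values of 1 list gene are not reported here. Nr3c2 and Ppp1r1a in DKD_Vehicle against NC, the genes listed for DKD_shRNA 31 and the named marker genes were named after their values were seen. Alternatives for the list genes were added after seeing the data. Promoter sequences are from RefSeq (GRCm38.p6) and transcript lengths from a GENCODE annotation of GRCm38.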

Additional observations from a re-analysis of the deposited data

Results flagged for a closer look

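For 2 of 30 sets of a gene and a group, 1 library lay far from the others of its group; chance alone flags about 1 in 20 such sets. Among the libraries labelled DKD_shRNA, Calb1 was 108 FPKM in DKD_shRNA 31 and between 44.9 and 63.5 FPKM in the other 6, a gap of 0.607 of the group's range against a critical value of 0.568. S100g was 2608 FPKM in the same library and between 608 and 922 FPKM in the other 6, a gap of 0.714 of the range. The genes are the cytosolic calcium-binding proteins calbindin-D28k and calbindin-D9k, and the same library was also the highest of its group for Trpv5 (6.79 FPKM), Trpm6 (3.29 FPKM) and Wnk1 (16.9 FPKM).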

How the results depend on the processing

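Of 774 values of the 10 members under alternatives, 735 kept their direction and side of the threshold, 12 newly passed, 8 no longer passed (all Klhl3 in DKD_Vehicle against NC) and 19 changed sign, none of which had passed; the causes were not tested. No paired analysis was possible because the groups share no replicate numbers. In DKD_Vehicle against NC, where 994 genes passed, 597 did with no filter, 2087 with sample weights and 456 to 1264 with 1 library left out, and 2 to 4 members passed with 1 library left out. For the libraries labelled DKD_shRNA against DKD_Vehicle, 1 gene passed with a pseudocount of 0.1, with genes of mean FPKM 5 or above, with only the compared groups or by limma voom, and 0 to 3 with 1 library left out. In those libraries against NC, where 268 genes passed, the count was 155 with no filter, 154 with genes of mean FPKM 5 or above, 444 with only the compared groups, 1070 with sample weights and 103 to 348 with 1 library left out; 1 member passed with only the compared groups, 3 with sample weights, 1 without DKD_Vehicle 20 and DKD_shRNA 31, and 0 to 1 with 1 library left out. Sign changes in log2 fold change were as follows. Stk39 in DKD_Vehicle against NC was −0.025 without DKD_Vehicle 20 and DKD_shRNA 31 and −0.026 to 0.079 with 1 library left out. For that comparison of the libraries labelled DKD_shRNA with DKD_Vehicle, Calb1 was −0.0079 after rescaling to the same FPKM total, −0.081 with sample weights, −0.16 without those 2 libraries and −0.11 to 0.16 with 1 left out; Trpm6 was −0.013 and −0.0100 to 0.097, and S100g −0.21 and −0.11 to 0.24, in the last pair of settings. Trpv5 in the libraries labelled DKD_shRNA against NC was −0.12 to 0.044 with 1 left out. Trpm6 and Trpv5 gave no value with a mean FPKM of 5 or more. Trpv5 and Trpm6 rest on as few as 147 and 172 reads in a library, which limits their precision.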
